A study of Mus musculus with 9 samples.

Results

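The genes described are 37 mouse genes of the unfolded protein response, the programme that adjusts protein folding in the endoplasmic reticulum (ER), and of its neighbour, the set of genes switched on by the transcription factor ATF4. They were chosen by symbol for their known roles, and each symbol was matched to its Ensembl identifier through the GENCODE annotation of mm10. The table lists 55487 genes, of which 15633 had enough counts to be tested, and all 37 members were among them. An ER arm of 22 genes holds the chaperones, disulfide isomerases, ER-associated degradation genes, stress sensors and Xbp1, and an ATF4 arm of 15 genes holds Atf4, its partner factors and its target genes. Both are described apart.

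RNA had been sequenced from isolated cardiomyocytes, the contractile cells of the heart, in 3 groups of 3 libraries. The Firre overexpression group carried AAV9-Firre, an adeno-associated virus of a serotype that infects heart muscle well, built to raise the nuclear long noncoding RNA Firre. A negative control group carried the AAV9 control vector (AAV9-VC), and a blank control group (NC) is labelled only as a blank; values given with the control vector are those of the negative control. The sources used here do not give the strain, the age, the promoter of the vector, its dose or the time after transfer, nor whether the replicates of a group came from separate animals. The question of the design is what Firre overexpression changes, with the vector alone as its control.

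Proteins that enter the ER fold with the help of chaperones such as BiP and of enzymes that form disulfide bonds, and those that fail are sent back to the cytosol for degradation. When unfolded proteins build up, the sensors IRE1, ATF6 and PERK respond: IRE1 splices Xbp1 mRNA, ATF6 is cut to release a transcription factor, and both raise chaperone and degradation genes. PERK and its sister kinases instead phosphorylate the translation factor eIF2, which slows protein synthesis but favours translation of Atf4 mRNA, and ATF4 then raises genes of amino acid synthesis and transport and the stress factor CHOP, so the ATF4 arm can also be reached without ER stress.

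The promoters were searched for elements known to bind the factors of each arm. They were taken from RefSeq (GRCm38.p6) as windows of 300 bases, 250 before and 50 after each start site, and 34 of the 37 members had one; Manf, Hyou1 and Atf6 had none. Searched on both strands were the ER stress response element (ERSE, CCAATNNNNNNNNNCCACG), bound by NF-Y together with ATF6 or XBP1, its second form (ERSE-II, ATTGGNCCACG), and the CEBP-ATF response element bound by ATF4 (CARE, TGATGNAA); ERSE and ERSE-II can share their CCACG end. ERSE was present in 8 of 19 ER-arm members with a window (42.1%) and in 0 of 15 ATF4-arm members, against 0.137% of 27025 genes. Below are the matches in those 8 genes, read in the direction of the motif and with the fixed letters in capitals; Hsp90b1 had a pair.
Hspa5: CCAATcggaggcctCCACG
Hsp90b1, far match: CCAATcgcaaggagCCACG
Hsp90b1, near match: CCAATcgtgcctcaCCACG
Calr: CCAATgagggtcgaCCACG
Canx: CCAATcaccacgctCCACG
Dnajc3: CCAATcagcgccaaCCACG
Pdia6: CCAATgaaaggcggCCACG
Creld2: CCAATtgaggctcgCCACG
Syvn1: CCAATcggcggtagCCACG

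These matches began between 44 bases (Syvn1) and 212 bases (Hsp90b1, far match) upstream of the start as RefSeq places it. CARE was present in 4 of 15 ATF4-arm members (26.7%), Asns, Chac1, Slc7a11 and Trib3, and in 1 of 19 ER-arm members (5.26%), Herpud1, against 4.51% of all genes. ERSE-II was present in Herpud1 and Dnajb11, 2 of 19 ER-arm members (10.5%), against 0.0444% of all genes. The members were picked for known roles, and some, such as Hspa5, are long-known targets of these elements, so matches among them were likely in advance. Shares over all genes include the members, and the shares are descriptions, not tests. A match describes letters in the window and says nothing about binding in these samples. The stretches of 150 bases that follow are those whose genes the results return to: Hspa5, the best-known target of the ERSE, Herpud1, which alone among the members held letters of both kinds of element, and 3 ATF4-arm genes. Capitals mark the matches; TTGCATCA is CARE on the reverse strand.
Hspa5, chr2:34771940-34772089, plus strand: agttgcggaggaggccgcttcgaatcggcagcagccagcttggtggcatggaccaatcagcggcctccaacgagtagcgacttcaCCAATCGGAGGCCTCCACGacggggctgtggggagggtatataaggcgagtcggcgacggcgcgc
Herpud1, chr8:94386279-94386428, plus strand: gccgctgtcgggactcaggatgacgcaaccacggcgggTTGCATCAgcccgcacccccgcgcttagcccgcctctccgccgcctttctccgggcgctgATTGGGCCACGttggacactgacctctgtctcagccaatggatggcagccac
Asns, chr6:7693210-7693359, minus strand: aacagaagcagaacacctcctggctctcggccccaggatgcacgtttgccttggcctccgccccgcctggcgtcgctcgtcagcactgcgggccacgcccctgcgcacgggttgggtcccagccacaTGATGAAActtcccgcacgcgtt
Slc7a11, chr3:50443614-50443763, minus strand: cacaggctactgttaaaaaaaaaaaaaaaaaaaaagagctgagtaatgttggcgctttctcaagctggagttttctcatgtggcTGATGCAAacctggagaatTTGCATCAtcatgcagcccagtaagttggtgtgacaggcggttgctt
Chac1, chr2:119350992-119351141, plus strand: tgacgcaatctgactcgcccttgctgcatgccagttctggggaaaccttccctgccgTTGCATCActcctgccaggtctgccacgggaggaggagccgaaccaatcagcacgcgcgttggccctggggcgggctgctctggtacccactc
All but the last end at the base before the RefSeq start; the Chac1 stretch runs from 250 to 101 bases upstream of it.

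Libraries held 15591542 to 22697016 counts in genes, of which mitochondrially encoded genes took 5.89% to 6.62% in the negative control and 7.07% to 8.07% in the Firre group. Firre itself rose by 0.97 on the log2 scale (SE 0.07, edgeR adjusted p = 4.74e-13), from 32.5, 34.4 and 32.7 to 62.9, 69.7 and 62.6 CPM (counts scaled to the size of the library). Marker genes of other heart cells moved with the groups. The 10 cardiomyocyte markers were all higher with Firre, with a summed level of 34515 to 37465 CPM with the control vector and 52792 to 55789 CPM in the Firre libraries. All 10 fibroblast markers were lower (9755 to 9959 against 4485 to 5028 CPM), as were all 10 endothelial markers (1474 to 1488 against 631 to 659 CPM), all 8 smooth muscle and pericyte markers (2848 to 3250 against 1421 to 1568 CPM) and all 10 macrophage markers (70.6 to 76.6 against 11.6 to 12.9 CPM, with C1qa at 0 counts in the Firre group). In bulk samples fewer cells of a type and less RNA per cell cannot be told apart. The level of the members in each of these cell types was not measured, and the part of these shifts in the results below was not tested.

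With Firre, most of the ER arm was lower while the ATF4 arm split. Against the negative control 15 of the 22 ER-arm genes fell and 3 rose, and in the ATF4 arm 4 of 15 fell and 7 rose (edgeR quasi-likelihood test, adjusted p under 0.05). Of all 15633 genes tested 28.4% fell and 27.5% rose, 56% in all. The median log2 fold change was -0.26 in the ER arm (range -0.50 to 0.65) and 0.05 in the ATF4 arm (range -0.54 to 1.64), beside 0.00 over all genes. Changes were small: only Ddit3 was called with a change of at least 2-fold, as were 12% of all genes. The summed level of the ER arm was 5027 to 5129 CPM with the control vector and 4393 to 4475 CPM with Firre. That of the ATF4 arm was 1375 to 1389 and 1526 to 1556 CPM, so that the Firre and negative control groups overlapped in neither sum. In the blank control the sums were 5103 to 5263 CPM and 1414 to 1496 CPM, the latter between those of the other groups. Abundant genes weigh most in such sums.

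Most single genes kept the groups apart as well. In 18 of 22 ER-arm genes the 3 Firre libraries all lay above (3) or below (15) all 3 negative control libraries, and in the ATF4 arm 11 of 15 did so (6 above, 5 below); over all genes tested this share was 62.4%. Against all 6 control libraries together the counts were 18 of 22 and 10 of 15, where all genes gave 52.3%. Replicates of a group were close: the median coefficient of variation over the 37 members was 4.35% for the blank control, 2.72% for the negative control and 3.3% with Firre, and its highest values were 28.8% for Cebpb in the blank control and 18.1% for Slc7a11 with Firre.

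**Figure D1:**
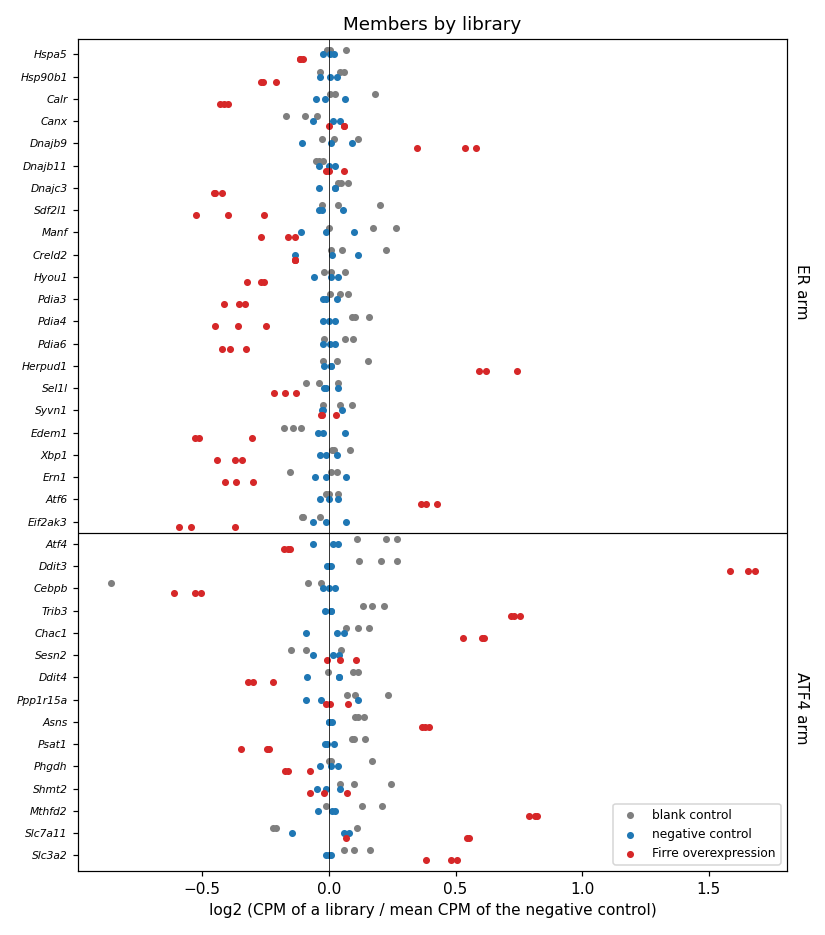
Level of each of the 37 genes in each of the 9 libraries, as the log2 ratio of its CPM to the mean CPM of the 3 negative control libraries (x axis), with 1 row per gene and 1 point per library. In 18 of 22 ER-arm genes the 3 Firre libraries (red) lie apart from the negative control (blue), 15 of them to the left, and Ddit3 lies farthest to the right.

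The most abundant chaperones were lower with Firre, by differing amounts, with Canx as the exception. Calr (ENSMUSG00000003814, chr8:84841850-84846934), which encodes the calcium-binding lectin chaperone calreticulin, stood at 1121, 991 and 1007 CPM in the blank control, 980, 954 and 1033 CPM with the control vector and 735, 751 and 742 CPM with Firre. Each Firre library was below each control library, and Calr fell by 24.9% (log2 fold change -0.41, SE 0.05, adjusted p = 9.78e-09). Hsp90b1, the ER member of the Hsp90 family, was at 593, 587 and 556, then 555, 582 and 571, then 473, 475 and 493 CPM in the same order of groups, and fell by 15.7% (-0.25, SE 0.04, adjusted p = 1.84e-05); 10.3% of its exonic bases lie opposite 1810014B01Rik. Hspa5 (ENSMUSG00000026864, chr2:34771970-34777547) encodes BiP, the ER Hsp70 that holds the sensors inactive and is the usual read-out of ER stress. Its levels were 718, 713 and 751 CPM in the blank control, 704, 726 and 719 CPM with the control vector and 661, 668 and 661 CPM with Firre. Here too the groups did not overlap, though Hspa5 fell by 7.36% only (-0.11, SE 0.04, adjusted p = 0.0267). That call was lost without negative control replicate 2 or 3 or without any of the 3 Firre libraries, with adjusted p = 0.0518 to 0.0733. Canx, the membrane-bound partner of calreticulin in the folding of glycoproteins, overlapped between groups at 508, 547 and 536 CPM with the control vector and 553, 530 and 552 CPM with Firre (0.04, SE 0.05, adjusted p = 0.476).

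BiP works with cochaperones, and these did not move as a block. Dnajc3, a BiP cochaperone that also inhibits the kinase PERK, was at 116, 116 and 111 CPM with the control vector and 83.6, 83.4 and 85.2 CPM with Firre and fell by 26.6% (log2 fold change -0.45, SE 0.05, adjusted p = 5.82e-09). Hyou1, which exchanges the nucleotide on BiP, went from 158, 148 and 155 to 123, 129 and 128 CPM (-0.28, SE 0.05, adjusted p = 1.77e-05). Sdf2l1, a low-level cochaperone, went from 15.1, 16.0 and 15 to 11.7, 10.7 and 12.9 CPM (-0.39, SE 0.10, adjusted p = 0.00155). In all 3 the Firre libraries lay below all 6 controls. Dnajb9, a cochaperone that brings BiP to IRE1 and to degradation, rose instead, from 35.0, 40.2 and 37.9 to 56.4, 48.0 and 54.7 CPM (0.49, SE 0.07, adjusted p = 5.95e-07), and was the only one of the 11 chaperones and cochaperones to do so. Dnajb11, a BiP partner that binds unfolded chains, was at 115 to 120 CPM with the control vector and 117 to 123 CPM with Firre (0.02, SE 0.05, adjusted p = 0.749). Manf, a secreted protein that binds BiP, fell by 11.9% (-0.18, SE 0.06, adjusted p = 0.0178), a call that was lost without negative control replicate 3 (adjusted p = 0.135) or Firre replicate 1 (adjusted p = 0.0994). Creld2, an ER protein that assists disulfide formation, was at 27.1 CPM in each Firre library and 27.1 to 32.2 CPM in the negative control, and did not pass (-0.13, SE 0.08, adjusted p = 0.154), though it did with library totals alone as the scaling (-0.19, adjusted p = 0.0416) and without negative control replicate 2 (-0.20, adjusted p = 0.0498).

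The disulfide isomerases form and reshuffle disulfide bonds in the ER, and all 3 members of that role fell by nearly the same amount. Pdia3, which acts on glycoproteins held by calreticulin and calnexin, was at 661, 629 and 646 CPM in the blank control, 623, 641 and 618 CPM with the control vector and 471, 490 and 499 CPM with Firre (log2 fold change -0.37, SE 0.04, adjusted p = 1.68e-08). Pdia6, which also acts on the sensors IRE1 and PERK, went from 233, 238 and 241 CPM in the negative control to 177, 189 and 181 CPM (-0.38, SE 0.05, adjusted p = 4.12e-08). Pdia4 went from 122, 120 and 118 to 87.8, 93.7 and 101 CPM (-0.35, SE 0.05, adjusted p = 2.04e-06). No Firre library reached the level of any control in these 3 genes.

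ER-associated degradation, which takes misfolded proteins out of the ER, was mixed. Herpud1 (ENSMUSG00000031770, chr8:94386438-94395377), a membrane scaffold of the degradation complex and the gene whose promoter held both ERSE-II and CARE, was at 94.6, 98.3 and 107 CPM in the blank control, 96.7, 96.9 and 95.0 CPM with the control vector and 145, 161 and 148 CPM with Firre. All Firre libraries were above all controls, a rise of 57.1% (log2 fold change 0.65, SE 0.05, adjusted p = 1.44e-11) and the highest value in the ER arm. Edem1, a lectin that hands misfolded glycoproteins to the same complex, fell from 57.5, 61.0 and 56.7 to 41.0, 40.5 and 47.3 CPM (-0.45, SE 0.06, adjusted p = 6.65e-07). Sel1l, the adaptor of the ubiquitin ligase, fell by 11.3% (-0.17, SE 0.05, adjusted p = 0.0038). The ligase itself, encoded by Syvn1, was at 56.5 to 59.7 CPM with the control vector and 56.4 to 58.7 CPM with Firre (-0.01, SE 0.06, adjusted p = 0.893).

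Of the sensors, Atf6 rose and the others fell. Eif2ak3 (ENSMUSG00000031668, chr6:70844515-70905245), which encodes PERK, was at 25.9, 24.7 and 24.6 CPM in the blank control, 27.8, 25.4 and 26.3 CPM with the control vector and 20.5, 18.2 and 17.6 CPM with Firre. It fell by 29.2%, the most of any called member (log2 fold change -0.50, SE 0.08, adjusted p = 5.04e-06); 8.05% of its exonic bases lie opposite the gene model Gm43292. Ern1, which encodes IRE1, went from 57.9, 53.2 and 54.9 to 45.0, 41.6 and 42.9 CPM (-0.36, SE 0.06, adjusted p = 1.86e-05). Xbp1, whose mRNA IRE1 splices, went from 129, 135 and 131 to 102, 104 and 97.3 CPM (-0.38, SE 0.05, adjusted p = 1.23e-07). A count per gene does not tell spliced from unspliced Xbp1, nor does an mRNA level measure whether a sensor is active. Atf6 went the other way, from 125, 122 and 119 to 164, 157 and 159 CPM (0.39, SE 0.05, adjusted p = 4.72e-08). In each of these 4 genes the Firre libraries lay apart from all 6 controls.

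The ERSE matches can be read beside these values. Of the 8 members with an ERSE 5 fell (Calr, Dnajc3, Hsp90b1, Hspa5 and Pdia6), 3 did not pass (Canx, Creld2 and Syvn1) and none rose. Of the ER-arm members with a window but no ERSE, Sdf2l1, Pdia3, Pdia4, Sel1l, Edem1, Xbp1, Ern1 and Eif2ak3 fell as well. Dnajb9 and Herpud1, also without an ERSE, rose and Dnajb11 did not pass. All 5 members with a CARE rose (Asns, Chac1, Herpud1, Slc7a11 and Trib3), though the call for Slc7a11 is unsteady. In the ATF4 arm Ddit3, Mthfd2 and Slc3a2 rose without a CARE in the window. Letters outside the window were not searched, and for Mthfd2, Slc3a2 and Psat1 the window lies inside the gene as GENCODE places it. Atf4, Ddit4, Psat1 and Phgdh, also without a CARE in the window, fell, and Cebpb, Sesn2, Ppp1r15a and Shmt2 did not pass. Beside them, of 300 tested genes that are no member and hold a CARE 31.3% rose and 31.3% fell (median log2 fold change -0.01), and of 9 with an ERSE 4 rose and 2 fell (median 0.18). Of the 11052 tested genes with a promoter window 29.3% rose and 29.6% fell. The difference between members and other genes was not tested, nor was that between members with and without an element.

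The ATF4 arm was led by Ddit3. Ddit3 (ENSMUSG00000025408, chr10:127290774-127296288) encodes CHOP, a transcription factor of the CEBP family that ATF4 raises and that is linked to cell death under lasting ER stress. Its levels were 40.3, 38.5 and 36.3 CPM in the blank control, 33.6, 33.4 and 33.2 CPM with the control vector and 107, 100 and 105 CPM with Firre. Every Firre library was far above every control, with 3.12 times the level of the negative control (log2 fold change 1.64, SE 0.06, adjusted p = 3.87e-20), and over the alternative settings its adjusted p stayed below the threshold. Another gene model with the same symbol lies inside it and had 0 counts. That model shares 6.13% of the exonic bases of Ddit3 on the same strand, and how reads there were assigned is not known. Of the exonic bases of Ddit3 3.97% lie opposite the gene Mars, whose reads cannot be told apart if strand was not used in counting. Atf4 itself (ENSMUSG00000042406, chr15:80255184-80257541), whose protein is set mainly by translation, was at 228, 204 and 221 CPM in the blank control, 181, 194 and 191 CPM with the control vector and 169, 167 and 170 CPM with Firre. Its mRNA fell by 10.6% (-0.16, SE 0.05, adjusted p = 0.00629), so Atf4 mRNA and the mRNA of its target Ddit3 differed in opposite directions between the same libraries.

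Cebpb, which encodes a CEBP factor that forms dimers with ATF4 and CHOP, had a library that stood apart. It was at 99.1, 170 and 176 CPM in the blank control, 177, 180 and 183 CPM with the control vector and 118, 127 and 125 CPM with Firre. The Firre libraries were below all negative control libraries but above blank control replicate 1, and the difference did not pass in the fit of all 9 libraries (log2 fold change -0.54, SE 0.21, adjusted p = 0.0651). Without blank control replicate 1, which is not part of this comparison but sets the spread, it was -0.54 (SE 0.05, adjusted p = 3.05e-11), and with only the Firre and negative control libraries fitted it was -0.54 (adjusted p = 2.22e-12). It also passed with DESeq2 (adjusted p = 0.0244) and with library totals alone (adjusted p = 0.0494). Of its exonic bases 20.7% lie opposite the gene Tmem189, the largest such overlap among the members.

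The feedback and stress effectors of ATF4 split, with 2 of 5 higher, 1 lower and 2 that did not pass. Trib3, a pseudokinase that restrains ATF4 and CHOP, was at 46.1, 47.3 and 48.8 CPM in the blank control, 42.2, 41.6 and 42.2 CPM with the control vector and 69.2, 70.8 and 69.7 CPM with Firre (log2 fold change 0.74, SE 0.06, adjusted p = 2.63e-12). Chac1, which breaks down glutathione, went from 27.6, 24.9 and 27.1 CPM in the negative control to 38.3, 40.3 and 40.5 CPM (0.58, SE 0.07, adjusted p = 2.58e-08). For both, all Firre libraries were above all controls. Ddit4, which restrains the growth kinase complex mTORC1, fell from 30.8, 33.6 and 33.6 to 28.1, 26.6 and 26.2 CPM (-0.28, SE 0.07, adjusted p = 0.00159). Sesn2, a leucine sensor that also restrains mTORC1, was at 46.2 to 49.7 CPM with the control vector and 48.1 to 52.1 CPM with Firre (0.05, SE 0.06, adjusted p = 0.533). Ppp1r15a, the phosphatase subunit that reverses the phosphorylation of eIF2, was at 62.3 to 71.8 and 65.8 to 69.9 CPM (0.03, SE 0.06, adjusted p = 0.753). The groups of the last pair of genes overlapped.

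Enzymes of amino acid and one-carbon synthesis went in both directions. Mthfd2, a mitochondrial enzyme of folate metabolism, was at 74.0, 81.8 and 86.4 CPM in the blank control, 75.3, 72.5 and 75.9 CPM with the control vector and 131, 132 and 129 CPM with Firre, a rise of 75.1% (log2 fold change 0.81, SE 0.06, adjusted p = 1.58e-13). Asns, which makes asparagine and is a classical ATF4 target, rose from 121, 120 and 120 to 155, 158 and 156 CPM (0.38, SE 0.05, adjusted p = 5e-08). The members of serine synthesis, Psat1 and Phgdh, did not follow them. Psat1, the second enzyme of that pathway, fell from 75.2, 74.8 and 76.5 to 64.2, 63.7 and 59.4 CPM (-0.27, SE 0.06, adjusted p = 9.72e-05). Phgdh, which opens serine synthesis, fell by 9.15% (-0.14, SE 0.05, adjusted p = 0.0256), a call that did not hold without negative control replicate 1 or 2 or Firre replicate 1 or 3 (adjusted p = 0.0581 to 0.102). Shmt2, which passes the carbon of serine to folate just ahead of Mthfd2, was at 162, 152 and 156 CPM with the control vector and 155, 165 and 149 CPM with Firre (-0.00, SE 0.05, adjusted p = 0.979).

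Slc3a2 and Slc7a11 encode the heavy and light chain of the transporter that takes up cystine, and Slc3a2 also pairs with other light chains. Slc3a2 rose from 141, 140 and 142 CPM in the negative control to 184, 200 and 197 CPM with Firre (log2 fold change 0.46, SE 0.05, adjusted p = 2.2e-09), and no Firre library overlapped a control. Slc7a11 was at 28.8, 36.0 and 28.6 CPM in the blank control, 30.1, 35.2 and 34.7 CPM with the control vector and 48.6, 34.9 and 48.8 CPM with Firre. Firre replicate 2 lay among the controls while the other Firre libraries were above them, and the call was near the threshold (0.40, SE 0.14, adjusted p = 0.0414). It was lost without any single negative control library, without Firre replicate 1 or 3 and without blank control replicate 1 or 3 (adjusted p = 0.0654 to 0.111), and also with library totals alone (adjusted p = 0.0764) and with only the 2 groups fitted (adjusted p = 0.0588).

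**Figure D2:**
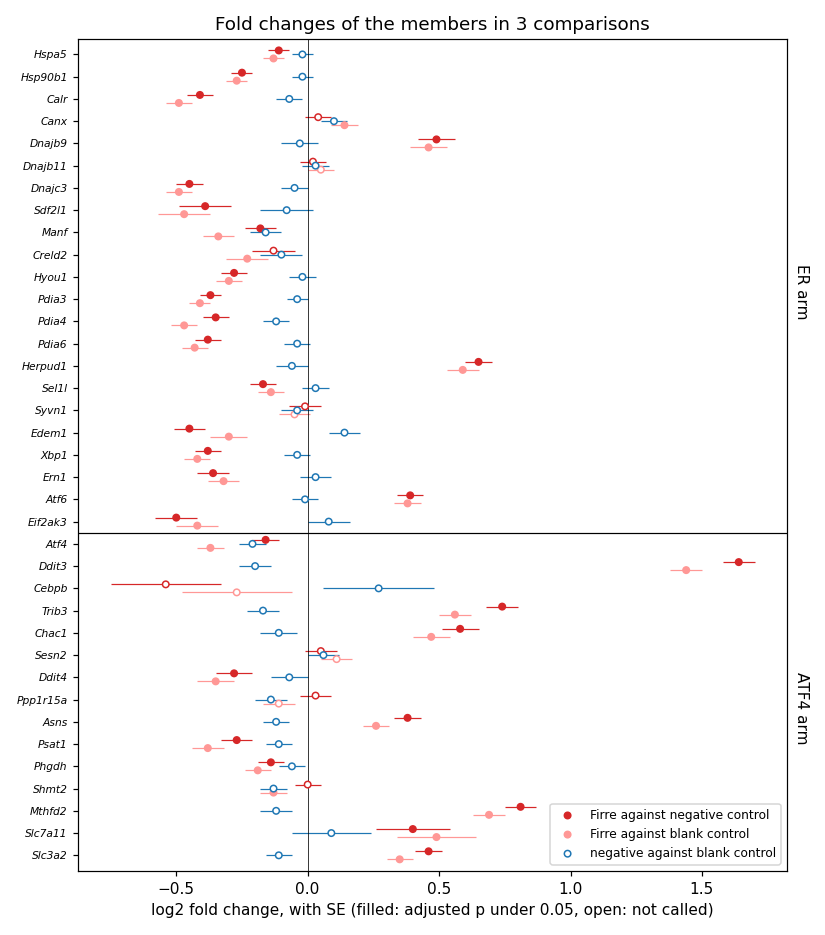
Log2 fold change of each of the 37 genes (x axis, bars are ± 1 SE) for Firre against the negative control, Firre against the blank control and the negative against the blank control, with filled points at an adjusted p under 0.05. In the Firre comparisons, which share the Firre libraries, Ddit3 is at 1.64 and 1.44 and Atf4 at -0.16 and -0.37, and every point of the negative against the blank control is open.

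Levels per kilobase of exon, which allow genes to be compared roughly, spread over more than 100-fold. The length merges the exons of all annotated transcripts (13922 bases for Slc7a11). It can understate a gene whose longer transcripts are not expressed. In the negative control the highest were Calr (343 ± 13.9 CPM per kilobase, SD, n = 3), Pdia3 (200 ± 3.81), Hspa5 (169 ± 2.63) and Hsp90b1 (141 ± 3.44), all of the ER arm, and the lowest were Ern1 (6.77 ± 0.294), Eif2ak3 (4.4 ± 0.196) and Slc7a11 (2.39 ± 0.203). Calr, Pdia3, Hspa5 and Hsp90b1 were each separated from the next by more than the SD. Among the sensors Atf6 was the highest per kilobase (13.2 ± 0.35), above Ern1 and Eif2ak3. Ddit3 was the 24th of the 37 genes in the negative control at 19.5 CPM per kilobase and had 60.7 CPM per kilobase with Firre, a level near that of Herpud1 (64.8) and Phgdh (58.6) in the same libraries.

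**Figure D3:**
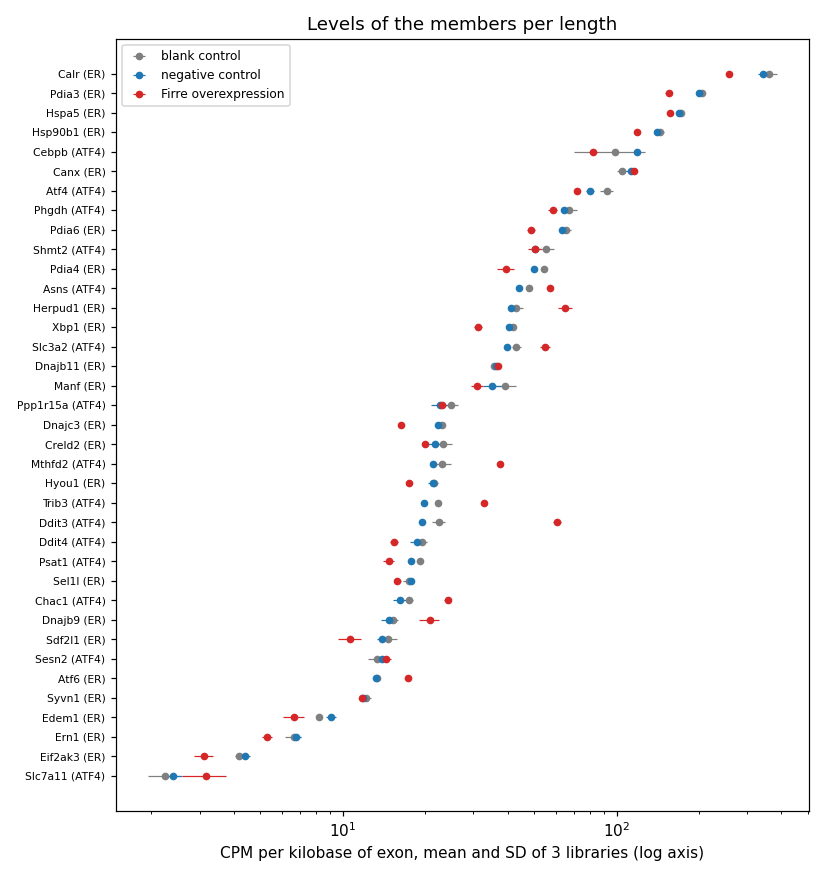
Mean level of each gene per kilobase of exon in the 3 groups (x axis, CPM per kilobase on a log scale, bars are ± 1 SD over 3 libraries), ordered by the negative control. Calr is highest at 343 and Slc7a11 lowest at 2.39 in the negative control, and Ddit3 moves from 19.5 to 60.7 with Firre.

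The vector alone was examined by setting the negative control against the blank control. None of the 37 genes passed with edgeR, 11 had an unadjusted p under 0.05, and DESeq2 called 1, Atf4 (log2 fold change -0.20, adjusted p = 0.0163). Over all genes edgeR called 9 (0.0576%), 1331 had an unadjusted p under 0.05 and DESeq2 called 43. Even so, in 8 of the 15 ATF4-arm genes all 3 negative control libraries lay below all 3 blank control libraries, a share that was 6.87% over all genes tested. These were Atf4, Ddit3, Trib3, Chac1, Asns, Psat1, Shmt2 and Slc3a2, with differences of -0.21 to -0.11 on the log2 scale; Cebpb lay above. In the ER arm Dnajc3 and Pdia4 lay below, Edem1 above and the other 19 overlapped. Atf4 had the smallest p of the arm (-0.21, SE 0.05, unadjusted p = 0.000248, adjusted p = 0.139). Without blank control replicate 2 it passed (-0.25, adjusted p = 0.0233). Summed macrophage markers were also lower in the negative control (70.6 to 76.6 CPM) than in the blank control (90.9 to 105 CPM), and their part in this was not tested.

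Against the blank control, 16 of 22 ER-arm genes fell and 4 rose with Firre, and 5 of 15 ATF4-arm genes fell and 7 rose, where 28.9% of all genes fell and 27.3% rose. Both comparisons share the Firre libraries, so their values are given side by side only. Ddit3 was at 1.44 against the blank control (SE 0.06, adjusted p = 7.47e-19) and 1.64 against the negative control, Trib3 at 0.56 and 0.74, Asns at 0.26 and 0.38, and Atf4 at -0.37 and -0.16. In the ER arm Calr was at -0.49 and -0.41, Pdia4 at -0.47 and -0.35, Herpud1 at 0.59 and 0.65 and Eif2ak3 at -0.42 and -0.50. Canx, Creld2 and Shmt2 passed against the blank control alone (0.14, -0.23 and -0.13), and the difference between the comparisons was not tested. Each of those calls was lost under some setting: Canx with library totals alone (adjusted p = 0.0859), Creld2 without blank control replicate 3 (adjusted p = 0.101), and Shmt2 with DESeq2 (adjusted p = 0.0708), with only the 2 groups fitted (adjusted p = 0.063) and without blank control replicate 1 (adjusted p = 0.296) or Firre replicate 1 or 3 (adjusted p = 0.114 and 0.212). Sel1l, at -0.14, was lost without blank control replicate 2 (adjusted p = 0.102) or Firre replicate 2 or 3 (adjusted p = 0.108 and 0.0602), and Slc7a11, at 0.49, without blank control replicate 1 or 3 (adjusted p = 0.0744 and 0.0862). Without blank control replicate 1, Cebpb (-0.48, adjusted p = 4.17e-09) and Sesn2 (0.17, adjusted p = 0.0387) passed, as did Ppp1r15a with library totals alone (-0.16, adjusted p = 0.0269).

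In 4 further lists of the secretory pathway the genes that fell with Firre outnumbered those that rose. Over all genes tested 28.4% fell and 27.5% rose. Of 21 further ER folding genes 10 fell and 2 rose (median log2 fold change -0.08), led by the thioredoxin-domain protein gene Txndc5, from 380, 368 and 369 to 182, 189 and 185 CPM (-1.01, SE 0.04, adjusted p = 3.47e-18), and Pdia5 (-0.90, SE 0.08, adjusted p = 2.74e-11). Of 21 genes of translocation into the ER and N-glycosylation 12 fell and 1 rose (median -0.14), among them the signal peptidase subunit gene Spcs3 (-0.67) and the translocation pore gene Sec61a1 (-0.47). Collagen folding enzymes fell in 12 of 13 cases with none higher (median -0.27), among them Fkbp10 (-0.82) and Plod2 (-0.84); collagen is made mainly by fibroblasts, whose 10 markers fell in the same libraries, and their part was not tested. Of 7 other ER stress factors and site proteases 3 fell and none rose (median -0.17), with Creb3l1, a sensor related to ATF6, from 152, 143 and 156 to 88.3, 97.9 and 88.4 CPM (-0.71, SE 0.05, adjusted p = 1.03e-12) and Creb3l2 at -0.29. Further degradation genes were mixed, with 6 of 16 higher and 4 lower (median 0.03). Derl3, a channel component of that machinery, rose from a low level of 0.308, 0.518 and 0.663 CPM to 2.78, 2.71 and 1.98 CPM (2.31, SE 0.34, adjusted p = 7.85e-07).

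Around eIF2, 5 of 12 genes rose and 2 fell (median 0.11), where 27.5% of all genes tested rose and 28.4% fell. Eif2ak2 encodes PKR, the eIF2 kinase that is activated by double-stranded RNA and induced by interferon. It was at 69.3, 66.6 and 61.3 CPM in the blank control, 69.2, 71.0 and 60.5 CPM with the control vector and 176, 160 and 176 CPM with Firre (log2 fold change 1.35, SE 0.06, adjusted p = 1.64e-17), while the PERK gene Eif2ak3 was lower in the same libraries. Eif2b4, a subunit of the exchange factor that phosphorylated eIF2 blocks, rose by 0.61 (SE 0.07, adjusted p = 3.5e-09). These are mRNA levels, and the phosphorylation of eIF2 was not measured.

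Further ATF4 targets had no common direction: 8 of 22 rose, 7 fell and 7 did not pass (median -0.04). For this and the lists below, the shares over all genes tested were 27.5% higher and 28.4% lower. Atf5, a factor closely related to ATF4, rose from 193, 182 and 177 to 337, 358 and 335 CPM (0.90, SE 0.05, adjusted p = 3.23e-15), and Vldlr, a lipoprotein receptor gene, from 111, 115 and 110 to 182, 181 and 190 CPM (0.72, SE 0.05, adjusted p = 1.41e-12). The stress hormone gene Gdf15 rose by 0.47 (SE 0.09, adjusted p = 6.75e-05) and the chromatin-associated stress gene Nupr1 fell by 0.31 (SE 0.07, adjusted p = 0.000874). Atf3, often raised together with Ddit3, was at 13.3, 12.0 and 12.5 CPM with the control vector and 13, 13.4 and 10.4 CPM with Firre (-0.04, SE 0.14, adjusted p = 0.843). Fgf21, a secreted factor, was below 1 CPM in every library (0.04, SE 0.47, adjusted p = 0.957). Of 9 further amino acid transporters 5 rose and 4 fell (median 0.12), with the glutamine transporter gene Slc1a5 going from 34.0, 36.3 and 38.3 to 13.6, 17.1 and 16.6 CPM (-1.20, SE 0.08, adjusted p = 1.7e-13) and the arginine transporter gene Slc7a1 at -0.45. A list of cytosolic aminoacyl-tRNA synthetase genes, many of which ATF4 can raise, and the tRNA exportin gene Xpot had 12 of 19 genes higher and 2 lower (median 0.22), with Gars at 0.44 and Eprs at 0.41.

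**Figure D4:**
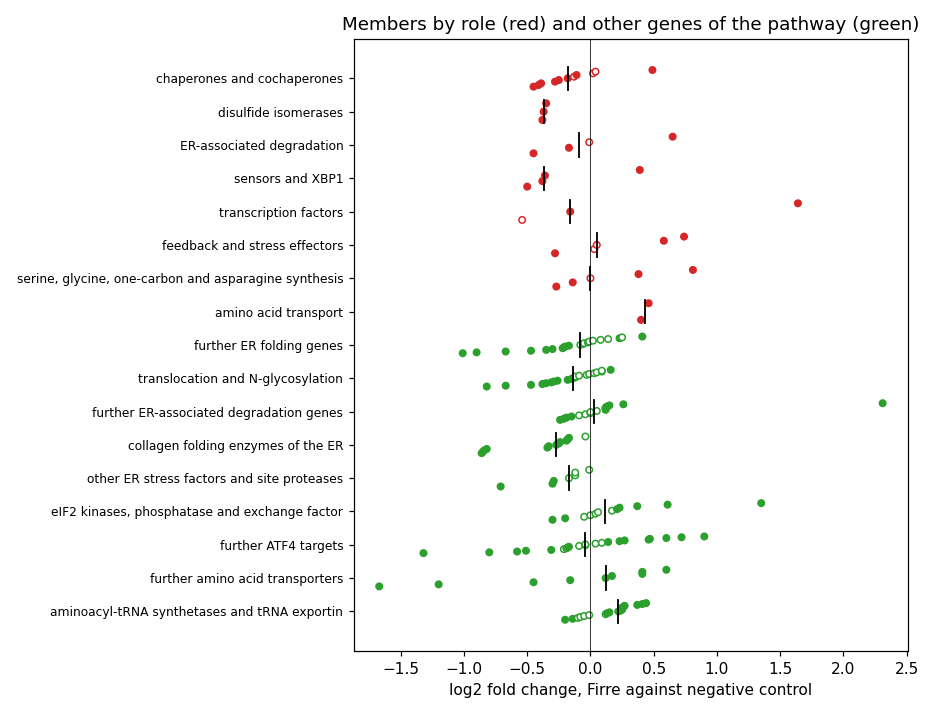
Log2 fold change of Firre against the negative control (x axis) for the members by role (red) and for the genes of 9 further lists of the pathway (green), with 1 point per gene, filled at an adjusted p under 0.05, and a black bar at each median. The medians of the collagen folding enzymes (-0.27) and disulfide isomerases (-0.37) lie to the left, and that of the aminoacyl-tRNA synthetases with the tRNA exportin (0.22) to the right.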

How the data were processed

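The authors deposited raw counts per Ensembl gene for the 9 libraries. Per the labels' protocols, total RNA was depleted of ribosomal RNA and sequenced as directional paired-end libraries on a NovaSeq instrument, although the molecule is labelled polyA RNA. FastQC, Trimmomatic, STAR, featureCounts and mm10 are named per the submitters' processing notes; no version or strand setting is given in the sources used here. The table closes with 5 lines that name no gene, in HTSeq style, so the counter is not settled; they held 16.3% to 17.4% of counts and were left out.

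Groups came from the sample titles, which call the replicates biological but leave it unsaid whether they come from separate animals. The p-values therefore cover only the spread between the libraries at hand, and how much of it is technical cannot be told. No batch is named in the labels, so a batch that ran with the groups cannot be told apart from them. Replicate pairs differed beyond sampling noise (chi-square per degree of freedom 3.27 to 7.39).

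All 9 libraries were fitted together with edgeR 4.0.16 (R 4.3.3): TMM, filterByExpr (minimum count 10, minimum total 15), robust quasi-likelihood F test, 6 residual degrees of freedom, Benjamini-Hochberg adjustment over 15633 genes and a threshold of 0.05. Each SE was taken as the size of the log2 fold change divided by the root of F, and CPM use TMM factors. DESeq2 1.42.0, other scalings and filters, a replicate block and leaving out libraries were alternatives; blank control libraries were also left out of the Firre against negative control fit, and likewise the third group's elsewhere, a choice made after seeing the data. Symbols came from GENCODE M21, which matched 55227 of 55487 identifiers. Named were all members, Firre, the 2 genes with the smallest p of each of 9 further lists, and Eif2ak2, Atf3, Gdf15, Fgf21 and Nupr1. A gene that this rule covers is not reported here. Members and lists were chosen with earlier results of these data known. A planned search of protein ends was not made.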

Additional observations from a re-analysis of the deposited data

How the results depend on the processing

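No called member changed direction under the 17 alternatives tried for each comparison. For Firre against the negative control, 602 member values kept their side of the threshold, 21 lost it (Slc7a11, Hspa5, Phgdh and Manf) and 6 gained it (Cebpb and Creld2). Leaving out 1 library of the groups compared at a time gave 13 to 15 ER-arm genes lower and 3 higher, 6 to 7 ATF4-arm genes higher and 3 to 4 lower, and 7938 to 8128 genes called in all, against 8747 in the full fit. For the negative against the blank control, 9 genes were called in the full fit, 98 without a low-count filter, 43 with DESeq2, 0 to 55 when a compared library was left out and 4 to 11 when a Firre library was. Without blank control replicate 1 none was called and without blank control replicate 2 there were 55; the cause was not tested. The ATF4-arm genes lower there were 0 in the full fit, 1 without the filter, 1 with DESeq2 and 0 to 1 when a library was left out, Atf4 each time. Against the blank control, 12 member values with Firre lost their call and 3 gained one. Replicate numbers did not pair the samples: deviations of same-numbered libraries correlated at -0.0739 to 0.0571, and those of other pairs at -0.0719 to 0.0983. With the replicate number as a block (replicate block) 8592 genes were called for Firre against the negative control, 7 for the negative against the blank control and 8586 for Firre against the blank control, and of the members Slc7a11 alone lost its call (adjusted p = 0.0864). Precision for Firre against the negative control ranged from an SE of 0.04 for abundant members such as Hspa5 to 0.10 for Sdf2l1, the lowest in CPM; Slc7a11 (0.14) and Cebpb (0.21) had a larger SE.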

Other observations

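Genes that are no member but hold an ERSE-II in the promoter window were 7 among those tested. For Firre against the negative control none of them rose and 2 fell (28.6%, median log2 fold change 0.02). Of all tested genes with a promoter window 29.3% rose and 29.6% fell.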
